A study of Mus musculus with 2 samples.

Results

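The genes described here encode the ephrin, Slit, Robo and netrin guidance systems, measured in PGK12.1, a female mouse embryonic stem cell line, after 15 days of embryoid body differentiation and in the undifferentiated state. They were chosen by symbol: Epha, Ephb, Efna, Efnb, Slit, Robo, Ntn, Ntng or Flrt followed by a number, any symbol that begins with Unc5, and Dcc and Neo1. A probe set annotated to a single gene was found for 45 of the 46 mouse genes whose symbol matches, out of 18193 measured genes. Ephb2 had none and was not analysed here. Of these 45 genes, 43 are guidance genes, while Unc50 and Unc5cl share only the letters of the name: Unc50 is no netrin receptor, and Unc5cl is a death domain protein named for its likeness to the inner part of UNC5C. The day 15 group is 1 array of total RNA from cells differentiated for 15 days as embryoid bodies, and the undifferentiated group (day 0) is 1 array of total RNA from the same line. The line came from blastocysts of a 129 female and a (129 X PGK)F1 male and was used at passage 14 to 18. Both groups share growth on mouse embryonic fibroblast feeders in medium with leukemia inhibitory factor at 1000 U/ml, and feeders were removed on gelatin before collection or differentiation. Both arrays are of a single line, so they stand for 1 genetic background. The stated aim was to follow the X chromosome as the cells pass to a single active X, and of the 45 genes only Efnb1 lies on the X.

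Eph receptors are receptor tyrosine kinases that meet their ephrin ligands at contacts between cells. The ephrin-A ligands are held to the membrane by a lipid anchor and the ephrin-B ligands span it, and both the receptor and the ligand can signal into their own cell, which sorts cells and sets tissue boundaries. Slits are large secreted proteins that repel migrating cells and axons through Robo receptors. Netrins are secreted relatives of the laminins that attract through DCC and neogenin and repel through UNC5 receptors, and FLRT proteins are membrane proteins that bind UNC5 and the latrophilins. All of these systems also act outside the nervous system, in vessels, heart, limb and epithelia.

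Promoter sequences are shown for genes whose signal was higher at day 15 in each system. Each is the 250 bases before the RefSeq start of the gene, 5′ to 3′ on the gene's own strand in assembly GRCm38.p6, in lower case with every CG dinucleotide in capitals. They lie at chr11:35121206-35121455 (plus strand, Slit3), chr8:8661243-8661492 (minus, Efnb2), chr3:141465314-141465563 (plus, Unc5c), chr16:63864176-63864425 (minus, Epha3) and chr2:140671477-140671726 (minus, Flrt3).
Slit3: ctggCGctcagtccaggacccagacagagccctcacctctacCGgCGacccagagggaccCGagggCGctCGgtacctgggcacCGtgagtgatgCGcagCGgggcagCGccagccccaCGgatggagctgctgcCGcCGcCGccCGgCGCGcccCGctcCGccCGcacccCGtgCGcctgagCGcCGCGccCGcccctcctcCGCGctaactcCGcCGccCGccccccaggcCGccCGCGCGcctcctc
Efnb2: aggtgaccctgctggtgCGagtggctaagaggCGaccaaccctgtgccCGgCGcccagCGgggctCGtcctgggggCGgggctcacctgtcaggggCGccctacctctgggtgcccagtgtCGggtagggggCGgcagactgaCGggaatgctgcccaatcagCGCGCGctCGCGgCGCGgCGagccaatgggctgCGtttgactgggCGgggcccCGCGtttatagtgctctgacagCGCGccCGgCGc
Unc5c: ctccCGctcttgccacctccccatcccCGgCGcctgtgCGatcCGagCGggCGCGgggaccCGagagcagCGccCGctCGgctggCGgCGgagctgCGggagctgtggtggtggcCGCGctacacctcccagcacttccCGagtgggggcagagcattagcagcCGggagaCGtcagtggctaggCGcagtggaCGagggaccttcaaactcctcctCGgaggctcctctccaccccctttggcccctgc
Epha3: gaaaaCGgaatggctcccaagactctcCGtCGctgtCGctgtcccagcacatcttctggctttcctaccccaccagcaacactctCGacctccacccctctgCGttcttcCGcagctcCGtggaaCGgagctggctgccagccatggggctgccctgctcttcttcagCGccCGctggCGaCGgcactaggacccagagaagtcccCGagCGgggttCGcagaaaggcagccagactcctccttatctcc
Flrt3: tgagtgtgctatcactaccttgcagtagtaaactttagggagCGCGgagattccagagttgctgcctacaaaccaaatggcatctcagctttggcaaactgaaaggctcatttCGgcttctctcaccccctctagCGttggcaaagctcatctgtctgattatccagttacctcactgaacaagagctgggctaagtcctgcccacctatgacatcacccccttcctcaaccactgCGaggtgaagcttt
The Slit3 stretch holds 35 CG dinucleotides, the Efnb2 stretch 27, the Unc5c stretch 23, the Epha3 stretch 16 and the Flrt3 stretch 5.

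At day 15, a ligand or a receptor of every one of these systems had a higher signal, led by Flrt2, Epha3, Ntn4, Efnb2, Efna5, Slit3, Flrt3, Slit2, Unc5b and Unc5c. Values are linear signal intensities, and a difference is the log2(signal + 16) at day 15 minus that in undifferentiated cells. On this scale 14 of the 45 genes exceeded 2-fold in favour of day 15 (31.1%, against 12.8% of all measured genes), 1 was lower by at least 2-fold (2.22%, against 7.56% of all genes) and 30 lay between. The median difference was 0.45 over the 45 genes and -0.024 over all measured genes. Without Unc50 and Unc5cl it was 0.43 over 43 genes, with the same counts past 2-fold. Differences past 4-fold were found for 10 genes, all of them higher at day 15. Just past 4-fold, upward differences were also the more frequent ones over all measured genes. There, 0.97% of genes lay from 2.0 to 2.25, and 0.25% from -2.25 to -2.0. Further out the imbalance was larger, with 0.57% of genes from 2.5 to 2.75 and 0.055% from -2.75 to -2.5. The upward direction past 4-fold is therefore not particular to the guidance genes. There is 1 array per condition, so no value has a replicate error, no test between conditions can be made, and each difference is described by its size alone. In RNA from whole cultures, more cells of a type and more RNA per cell cannot be told apart.

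The balance of these counts moved with the scaling of the arrays. On the deposited scaling 93.3% of the guidance genes past 2-fold were higher at day 15 (62.9% over all genes). With quantile normalization 12 genes were called higher (11.0% of all genes) and 3 lower (9.78% of all genes), a share of 80.0% (52.9% over all genes). With scaling on the bacterial hybridization controls 10 were called higher (8.50% of all genes) and 4 lower (15.2% of all genes), a share of 71.4% (35.9% over all genes). That second scaling moved the median of all genes by -0.25, and the guidance median then lay 0.39 above that of all genes, compared with 0.48 as deposited and 0.49 with quantile normalization. The sign of Efna1, Efna2, Efna3, Flrt1, Robo1 and Robo4 differed between the scalings, so no direction is given for them.

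Among 15 bacterial control probe sets (Phe, Thr and Trpn) that showed no target, the highest reading was 35.6, and this value serves as a bound below which a signal is not told from background. Both arrays lay above it for 25 of the 45 genes, the day 15 array alone for 10, and neither for 10. Where the undifferentiated signal lay below the bound, the fold is the day 15 signal over 35.6 and is given as at least N-fold. No fold is given where neither array exceeded it. Other folds are ratios of the signals. Signals of different probe sets depend on the probes and are not compared between genes.

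**Figure D1:**
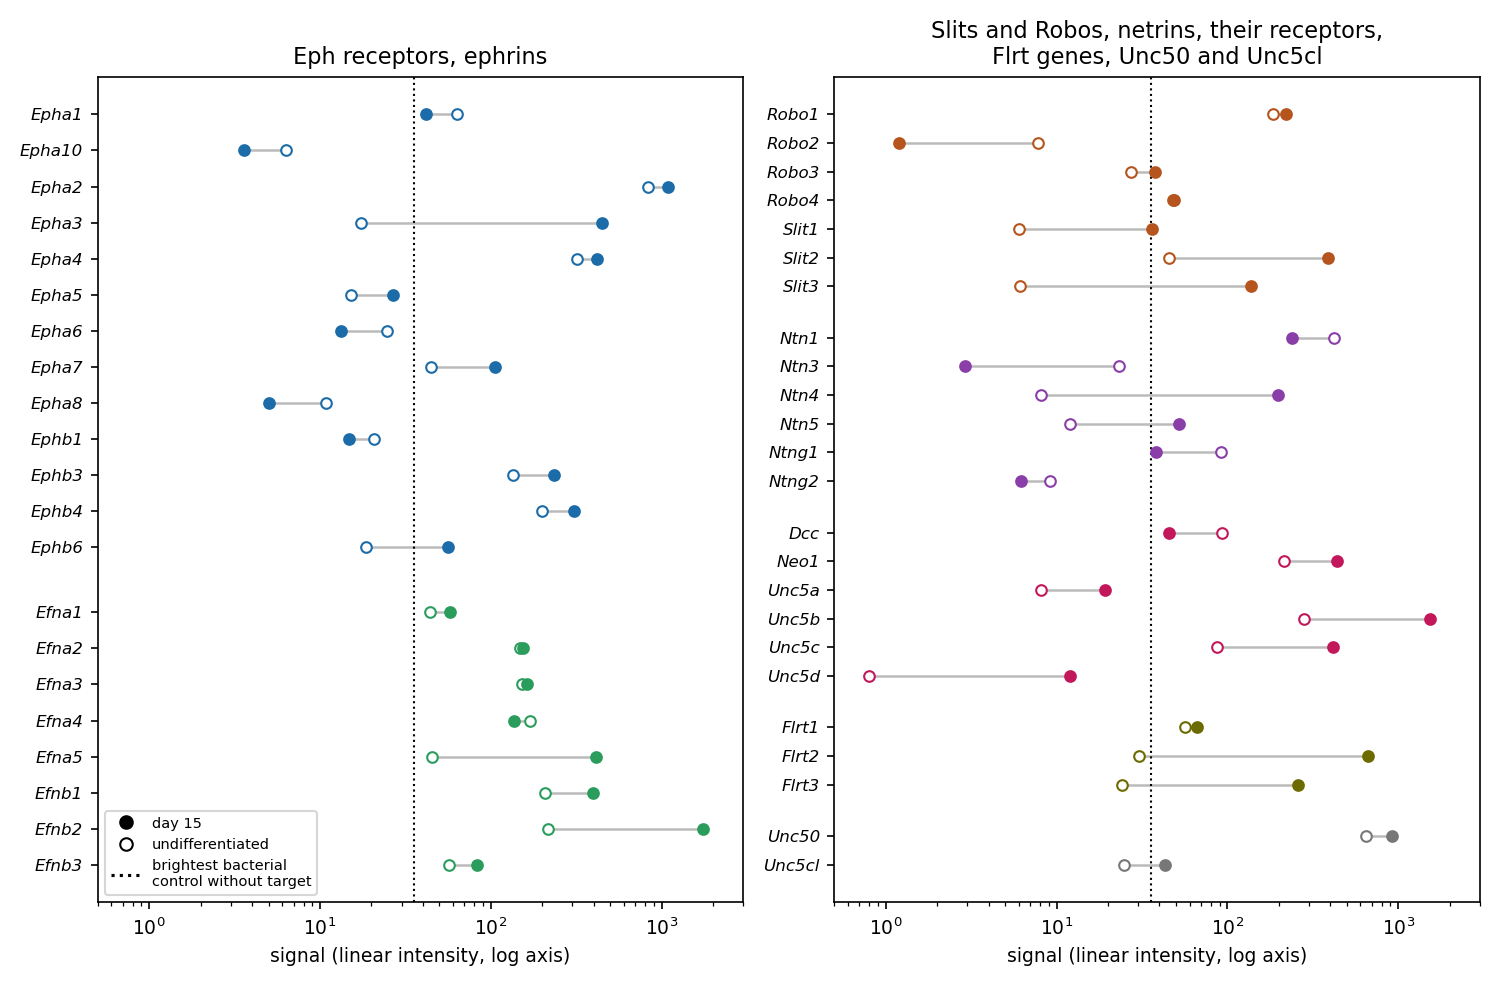
Signal of each of the 45 genes at day 15 (filled points) and in undifferentiated cells (open points), 1 array each, on a log axis of linear intensity, with the bound of 35.6 as a dotted line. Epha3, Flrt2, Flrt3, Ntn4 and Slit3 cross the bound between the arrays, while Epha2, Epha4, Efna2 and Robo1 differ by at most 1.32-fold.

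Among the Eph receptors, EphA3 had the largest difference. Epha3, whose receptor prefers ephrin-A5, read 449 at day 15 and 17.4 in undifferentiated cells (probe set 1425575_at, at least 12.6-fold higher, difference 3.80). Its other 3 probe sets read 661.9, 153.8 and 39.5 at day 15, and 3.30, 1.80 and 2.70 in that order in undifferentiated cells, so all 4 were below the bound in undifferentiated cells and above it at day 15. Epha7, a receptor with truncated forms that lack the kinase, read 105.5 at day 15 and 44.7 in undifferentiated cells on its representative probe set (2.36-fold higher, difference 1.00). Other Epha7 probe sets had larger differences, with 215.0 at day 15 and 9.90 in undifferentiated cells for 1 of them (3.16), and 98.9 at day 15 and 5.30 in undifferentiated cells for another (2.43). Ephb6, which lacks kinase activity, read 56.1 at day 15 and 18.6 in undifferentiated cells (at least 1.58-fold higher, 1 probe set).

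The remaining Eph receptors lay within 2-fold, and several of them were bright on both arrays. Epha2, known from epithelia and the early embryo, read 1096 at day 15 and 834 in undifferentiated cells (1.31-fold higher, difference 0.39). Epha4, which binds ligands of both classes, read 420 at day 15 and 318 in undifferentiated cells (1.32-fold higher), with 1 of its 5 probe sets in the opposite direction. With scaling on the hybridization controls these differences came to 0.0026 for Epha2 and 0.0094 for Epha4. Ephb4, the venous partner of ephrin-B2, read 308 at day 15 and 199 in undifferentiated cells (1.55-fold higher), and Ephb3, a receptor of gut and neural boundaries, read 233 at day 15 and 136 in undifferentiated cells (1.72-fold higher). Epha1 read 41.5 at day 15 and 63.3 in undifferentiated cells, a difference of -0.46 that became 0.23 with the mean over its 3 probe sets. Epha5, Epha6, Epha8, Epha10 and Ephb1, which are mostly known from neural tissue or, for Epha10, as a receptor without kinase activity, lay at or below the bound on both arrays, with signals from 3.60 to 26.6 at day 15 and from 6.30 to 24.7 in undifferentiated cells. In all, 3 of 13 Eph receptors passed 2-fold upwards and 0 downwards, against 12.8% and 7.56% of all measured genes. With quantile normalization, and with scaling on the hybridization controls, 1 of 13 passed upwards, against 11.0% and 8.50% of all genes in that order. The upward share of the Eph receptors then no longer exceeded that of all genes. Epha7 differed by 0.76 and 0.67 in these settings, and Ephb6 by 0.96 and 0.76.

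Among the ephrins the ligands ephrin-A5 and ephrin-B2 stood apart from the other 6. Efnb2, the ligand that marks arteries and the posterior part of each somite, read 1753 at day 15 and 217 in undifferentiated cells (probe set 1419639_at, 8.07-fold higher, difference 2.92). Another 2 of its probe sets read 1400 and 211.9 at day 15, and 193 and 24.9 in that order in undifferentiated cells. The fourth was dim and opposite, at 34.1 at day 15 and 62.5 in undifferentiated cells, and the mean over all 4 gave a difference of 1.88. Efna5, which binds EphA3, EphA4 and EphA7 among others, read 413 at day 15 and 45.3 in undifferentiated cells (probe set 1436866_at, 9.12-fold higher, difference 2.81). A second Efna5 probe set lay below the bound on both arrays, and the mean over both gave a difference of 1.78. The ligand EphA3 prefers was therefore higher on the same array as Epha3 itself.

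Efnb1, the X-linked ephrin-B gene, read 398 at day 15 and 208 in undifferentiated cells (1.91-fold higher, difference 0.89). Its other 2 probe sets were past 2-fold, with 129.5 at day 15 and 30.7 in undifferentiated cells (difference 1.64) for 1, and 188.4 at day 15 and 77.5 in undifferentiated cells (1.13) for the other. Efnb3, known from the neural midline, read 82.5 at day 15 and 57.2 in undifferentiated cells. Of the ephrin-A genes, Efna4 read 137 at day 15 and 169 in undifferentiated cells (1.24-fold lower). Efna1, Efna2 and Efna3 read 57.6, 153.5 and 163 at day 15, and 44.2, 148 and 153 in that order in undifferentiated cells. On these representative probe sets the 4 genes differed by at most 1.30-fold between the arrays, and the signal differed widely for Efna5 alone. A second Efna1 probe set read 33.5 at day 15 and 4.40 in undifferentiated cells, both below the bound (difference 1.28). Second probe sets of Efna2 and Efna3 read 41.3 and 46.9 at day 15, and 25.2 and 28.0 in that order in undifferentiated cells.

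In the Slit and Robo system the ligands differed between the arrays and the receptors did not pass 2-fold. Slit2, a ligand made by mesenchyme, floor plate and kidney, read 386 at day 15 and 45.6 in undifferentiated cells (probe set 1424659_at, 8.46-fold higher, difference 2.71). Its other 2 probe sets lay below the bound on both arrays, and the mean over all 3 gave a difference of 1.01. Slit3, a ligand known from diaphragm and vessel development, read 138 at day 15 and 6.10 in undifferentiated cells (probe set 1452296_at, at least 3.87-fold higher, difference 2.80). Slit1, the mainly neural ligand, read 36.1 at day 15, just above the bound, and 6.0 in undifferentiated cells (at least 1.01-fold higher), and its difference of 1.24 rests on these dim values.

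Robo1, the broadly expressed receptor, read 219.5 at day 15 and 185.8 in undifferentiated cells, while a second Robo1 probe set read 29.4 at day 15 and 62.9 in undifferentiated cells. Robo4, the endothelial member, read 48.5 at day 15 and 48.2 in undifferentiated cells. Robo3, known from commissural neurons, read 37.8 at day 15 and 27.2 in undifferentiated cells. Robo2, a receptor of kidney and neural development, lay below the bound on both arrays, at 1.2 at day 15 and 7.8 in undifferentiated cells. All 3 Slit genes and 0 of 4 Robo genes thus passed 2-fold upwards, against 12.8% of all measured genes, and no test was made of Slit against Robo genes. Slit1 did not pass with a pseudocount of 64 (0.52), with the mean over its probe sets (0.98) or with scaling on the hybridization controls (0.98).

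**Figure D2:**
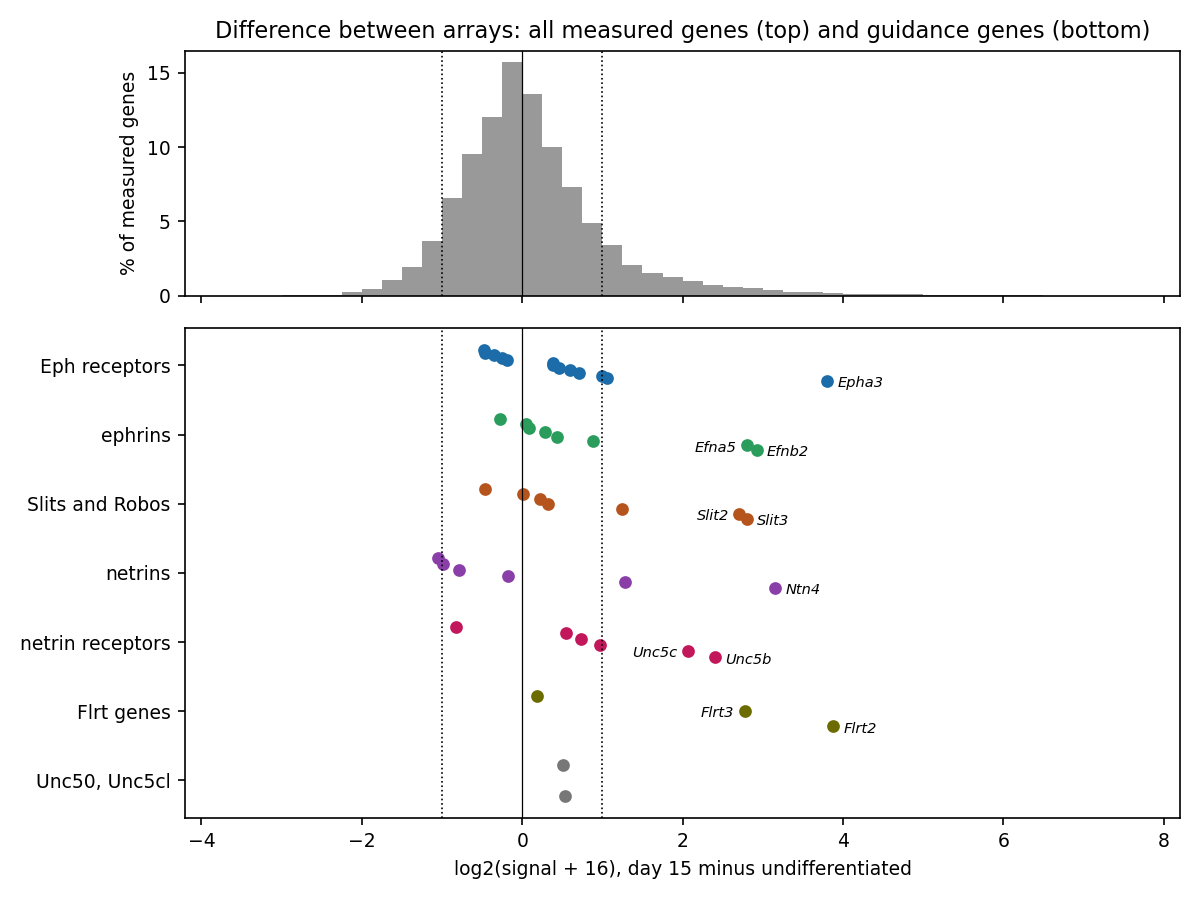
Top, the distribution over 18193 measured genes of the difference in log2(signal + 16), day 15 minus undifferentiated. Bottom, the same difference for each of the 45 guidance genes by role, with dotted lines at 2-fold: 14 genes lie right of the right line and 1 lies left of the left line.

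The netrins did not move one way. Ntn4, a netrin of basement membranes that binds laminin, read 199 at day 15 and 8.10 in undifferentiated cells (probe set 1439794_at, at least 5.58-fold higher, difference 3.15), and its second probe set read 41.5 at day 15 and 4.20 in undifferentiated cells. Ntn1, the classical secreted netrin, read 239 at day 15 and 423 in undifferentiated cells (probe set 1454974_at, 1.77-fold lower, difference -0.78). Its second probe set lay below the bound on both arrays. Ntn5 read 51.9 at day 15 and 12.0 in undifferentiated cells (at least 1.46-fold higher, 1 probe set). Ntn3 was the single gene at least 2-fold lower, at 2.90 at day 15 and 23.3 in undifferentiated cells, but both values lay below the bound.

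Netrin-G proteins are lipid-anchored and bind neuronal membrane partners in place of DCC. Ntng1 read 38.1 at day 15 and 91.7 in undifferentiated cells (2.41-fold lower), and its difference of -0.99 fell just short of 2-fold on the log2(signal + 16) scale. Of its 4 probe sets, the other 3 lay below the bound on both arrays. Ntng2 read 6.20 at day 15 and 9.20 in undifferentiated cells. Of the 6 netrin and netrin-G genes, 2 passed 2-fold upwards and 1 downwards, against 12.8% and 7.56% of all measured genes, and the median difference was -0.48. With scaling on the hybridization controls 1 passed upwards and 3 downwards, against 8.50% and 15.2% of all genes.

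Among the netrin receptors, Unc5b and Unc5c passed 2-fold in favour of day 15, whereas Dcc was lower there. Unc5b, the UNC5 receptor of arterial and tip endothelium, read 1544 at day 15 and 279 in undifferentiated cells (probe set 1435110_at, 5.53-fold higher, difference 2.40), with 148.5 at day 15 and 59.3 in undifferentiated cells on its second probe set. Unc5c, a receptor for netrin-1 in migrating neurons, read 414 at day 15 and 86.9 in undifferentiated cells (probe set 1449522_at, 4.76-fold higher, difference 2.06), with 194.7 at day 15 and 2.30 in undifferentiated cells on its second. Unc5a and Unc5d, both mainly neural, lay below the bound on both arrays, at 19.2 and 11.9 at day 15 and 8.10 and 0.80 in that order in undifferentiated cells.

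Dcc, the attractive netrin receptor, read 45.6 at day 15 and 93.1 in undifferentiated cells (2.04-fold lower), and its difference of -0.82 stayed within 2-fold on the log2(signal + 16) scale. Its other 2 probe sets lay below the bound. Neo1, the broadly expressed relative of DCC that also binds repulsive guidance molecules, read 438 at day 15 and 216 in undifferentiated cells (2.03-fold higher, difference 0.97). This rests on a probe set with suffix s, a design that can match transcripts of more than 1 gene: another Neo1 probe set read 171.8 at day 15 and 168.7 in undifferentiated cells, and yet another read 58.7 at day 15 and 84.0 in undifferentiated cells. The Neo1 signals therefore did not agree between probe sets on a direction. Unc50 read 921 at day 15 and 645 in undifferentiated cells, and Unc5cl read 42.9 at day 15 and 24.8 in undifferentiated cells.

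The Flrt genes held the largest difference of all 45. Flrt2, which binds UNC5 receptors and acts in the heart, read 664 at day 15 and 30.2 in undifferentiated cells (probe set 1455096_at, at least 18.6-fold higher, difference 3.88), and its other 2 probe sets read 234.4 and 141.1 at day 15, and 19.8 and 19.4 in that order in undifferentiated cells. Flrt3, a gene of early endoderm and neural development, read 258 at day 15 and 24 in undifferentiated cells (probe set 1429310_at, at least 7.25-fold higher, difference 2.78), with 201.9 at day 15 and 18.0 in undifferentiated cells on its second. Flrt1 read 66.1 at day 15 and 56.5 in undifferentiated cells. All 5 probe sets of Flrt2 and Flrt3 were above the bound at day 15 and below it in undifferentiated cells.

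Several genes have more than 1 probe set, which allows a comparison within the pair of arrays, though not of variation between cultures. Of 27 genes with several probe sets, 15 had all of them in 1 direction and 12 had both directions. Of the 14 genes called higher, 11 had several probe sets, 10 of these had all of them higher, and 8 had at least 2 of them past 2-fold. Efnb2 was the exception among the 11. These counts include the probe set on which the gene was called, so they are not independent of the call. The other probe sets of Slit2, Efna5 and Slit1 lay below the bound on both arrays. The same shares over all genes were not counted. Over all genes with several probe sets above the median signal, the SD of the difference between probe sets of a gene was 0.53. Within that SD of the 2-fold line lay 4 of the 14: Epha7 (1.00), Ephb6 (1.06), Slit1 (1.24) and Ntn5 (1.28). Ephb6, Slit1 and Ntn5 were themselves below the median signal, so this SD does not describe the spread of such dim genes. Among genes that missed the line, Neo1 (0.97), Efnb1 (0.89) and Ntng1 (-0.99) lay nearest to it.

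**Figure D3:**
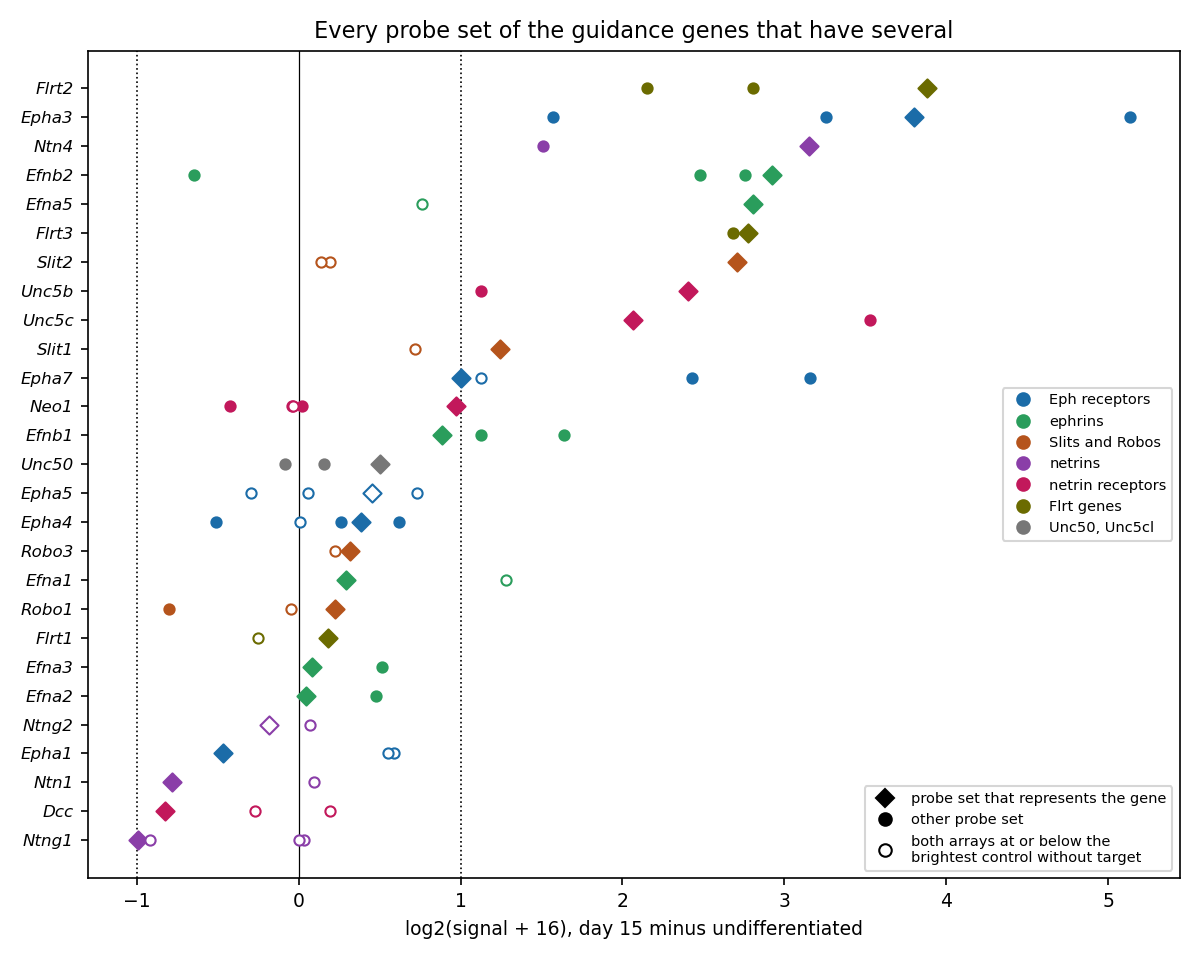
Difference in log2(signal + 16), day 15 minus undifferentiated, for every probe set of the 27 genes that have several; diamonds represent the gene, and open symbols lay at or below 35.6 on both arrays. All probe sets of Flrt2, Epha3, Ntn4, Flrt3, Unc5b and Unc5c lie right of the 2-fold line, while those of Neo1 lie on both sides of 0.

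Partners and effectors of these systems were read from 4 lists of genes. Of 24 Eph and ephrin effectors, 9 passed 2-fold upwards and 2 downwards (median difference 0.64), against 12.8% and 7.56% of all measured genes. Ptpn13, a phosphatase that binds the ephrin-B tail, read 385 at day 15 and 65.0 in undifferentiated cells, but its second probe set went the other way. Rgs3, a regulator of G protein signalling that binds ephrin-B, read 572 at day 15 and 117 in undifferentiated cells, and the adaptor gene Nck2 read 597 at day 15 and 146 in undifferentiated cells. The PDZ scaffold genes Grip1 (117.7 at day 15 and 19.2 in undifferentiated cells) and Sdcbp (3185 at day 15 and 948 in undifferentiated cells) were also higher. Chn1, a Rac regulator downstream of EphA4, read 94.3 at day 15 and 288 in undifferentiated cells (3.06-fold lower, with both of its 2 probe sets lower).

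Of 13 measured Slit and Robo partners, 3 passed 2-fold upwards and 0 downwards (median difference 0.50), against 12.8% and 7.56% of all measured genes. They were the heparan sulfate proteoglycan gene Sdc1 (2037 at day 15 and 477 in undifferentiated cells), Srgap1, a Slit-Robo GTPase-activating protein gene (156 at day 15 and 43.0 in undifferentiated cells), and Gpc1, whose product binds Slit (253 at day 15 and 113 in undifferentiated cells). The next in size were the adaptor gene Ndfip1 (difference 0.94), the exchange factor gene Sos1 (0.93) and the deubiquitinase gene Usp33, needed for Robo1 signalling (0.81). Of 18 measured netrin, DCC and neogenin partners, 5 passed 2-fold upwards and 2 downwards (median difference 0.43), against 12.8% and 7.56% of all measured genes. The actin-binding gene Ablim1 read 199.8 at day 15 and 7.30 in undifferentiated cells, with 2 of 4 probe sets in that direction, and the exchange factor gene Trio read 513 at day 15 and 94.8 in undifferentiated cells, with 5 of 6. Lrig2 (difference 1.14), Siah2 (1.07), the co-receptor gene Hjv (-1.11) and Dscaml1 (-1.11) followed. Cbln4, named after its values were seen, lay exactly on the 2-fold line, at 54.2 at day 15 and 19.1 in undifferentiated cells.

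Of 11 partners of FLRT, UNC5 and netrin-G proteins, 2 passed 2-fold upwards and 0 downwards (median difference 0.17), against 12.8% and 7.56% of all measured genes, so the upward share lay near that of all genes. Tenm3, which encodes a teneurin, a ligand of latrophilins, read 1160 at day 15 and 69.8 in undifferentiated cells (16.6-fold higher), and the latrophilin gene Adgrl2 read 1192 at day 15 and 299 in undifferentiated cells (3.99-fold higher). The other latrophilin genes lay within 2-fold, with Adgrl1 and Adgrl3 at 432 and 18.1 at day 15, and at 593 and 41.8 in that order in undifferentiated cells. Maged1 (difference 0.78) and Dapk1 (0.53), which act inside the cell with UNC5 proteins, also lay within 2-fold.

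Markers of cell types that express these genes were read on the same arrays. For comparison, 12.8% of all measured genes were higher by at least 2-fold and 7.56% lower. Of 8 neuron markers, 2 were lower by at least 2-fold and 0 higher, and their summed signal was 2915 at day 15 and 5453 in undifferentiated cells, with 6 above the bound at day 15 and 7 in undifferentiated cells. Of 7 endothelial markers, 1 was higher (Cdh5, 45.5 at day 15 and 11.7 in undifferentiated cells) and 1 lower (Pecam1, 106.5 at day 15 and 234.1 in undifferentiated cells). The upward share of the endothelial markers thus lay near that of all measured genes. The sum of the endothelial markers was 716 at day 15 and 899 in undifferentiated cells, and Tie1 lay below the bound on both arrays. Fibroblast and matrix markers, which feeder cells also make, were higher for 7 of 8, with a sum of 31791 at day 15 and 359 in undifferentiated cells. Smooth muscle markers were higher for 3 of 4 (sum 18027 at day 15 and 741 in undifferentiated cells), and epithelial markers were higher for 2 of 4 and lower for 2 (sum 5863 at day 15 and 6996 in undifferentiated cells). Pluripotent stem cell markers were lower for 4 of 6 (sum 13431 at day 15 and 29308 in undifferentiated cells). The sums are dominated by their brightest probe sets, and none of these markers was at 0. The part of these cell types in the guidance gene values was not tested.

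The promoter table held a sequence for 39 of the 45 genes, and Dcc, Efnb3, Flrt1, Ntn1, Slit1 and Unc5d had none. In the 250 bases before the start, taken at the most upstream start of each gene, the median number of CG dinucleotides was 25 for the 13 matched genes called higher, 13.5 for the other guidance genes, and 13 over 14366 genes on the array. Counts among the 13 genes ran from 2 for Ntn5 to 35 for Slit3, so they overlap the other genes widely. The letters GGGCGG, the core of an SP1 site, stood on either strand in 27 of the 39 promoters (69.2%), compared with 50% of genes on the array. They stood in 8 of the 13 genes called higher (61.5%), among them Slit3 and Efnb2, and these letters hold a CG themselves. The letters TATAAA, the core of a TATA box, stood on either strand in 2 promoters, on the gene's own strand for Slit2 and on the opposite strand for Efnb2 (5.13%, against 9.01% of genes on the array).

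Another 7 sets of letters were searched on both strands in the same windows. The AP-1 letters TGAGTCA and the POU letters ATGCAAAT stood in 0 of 39 promoters, against 3.80% and 1.39% of genes on the array. The TEAD letters GGAATG stood in 6 (15.4%, against 11.4%), among them Epha3 and Efnb2, and the NF-Y letters CCAAT in 14 (35.9%, against 35.9%). The E-box letters CAGCTG and CACCTG stood in 5 each (12.8%, against 12.5% and 16.9%), and the SOX letters ATTGTT in 1 (2.56%, against 6.53%). A match is a match of letters, not a site of binding.

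**Figure D4:**
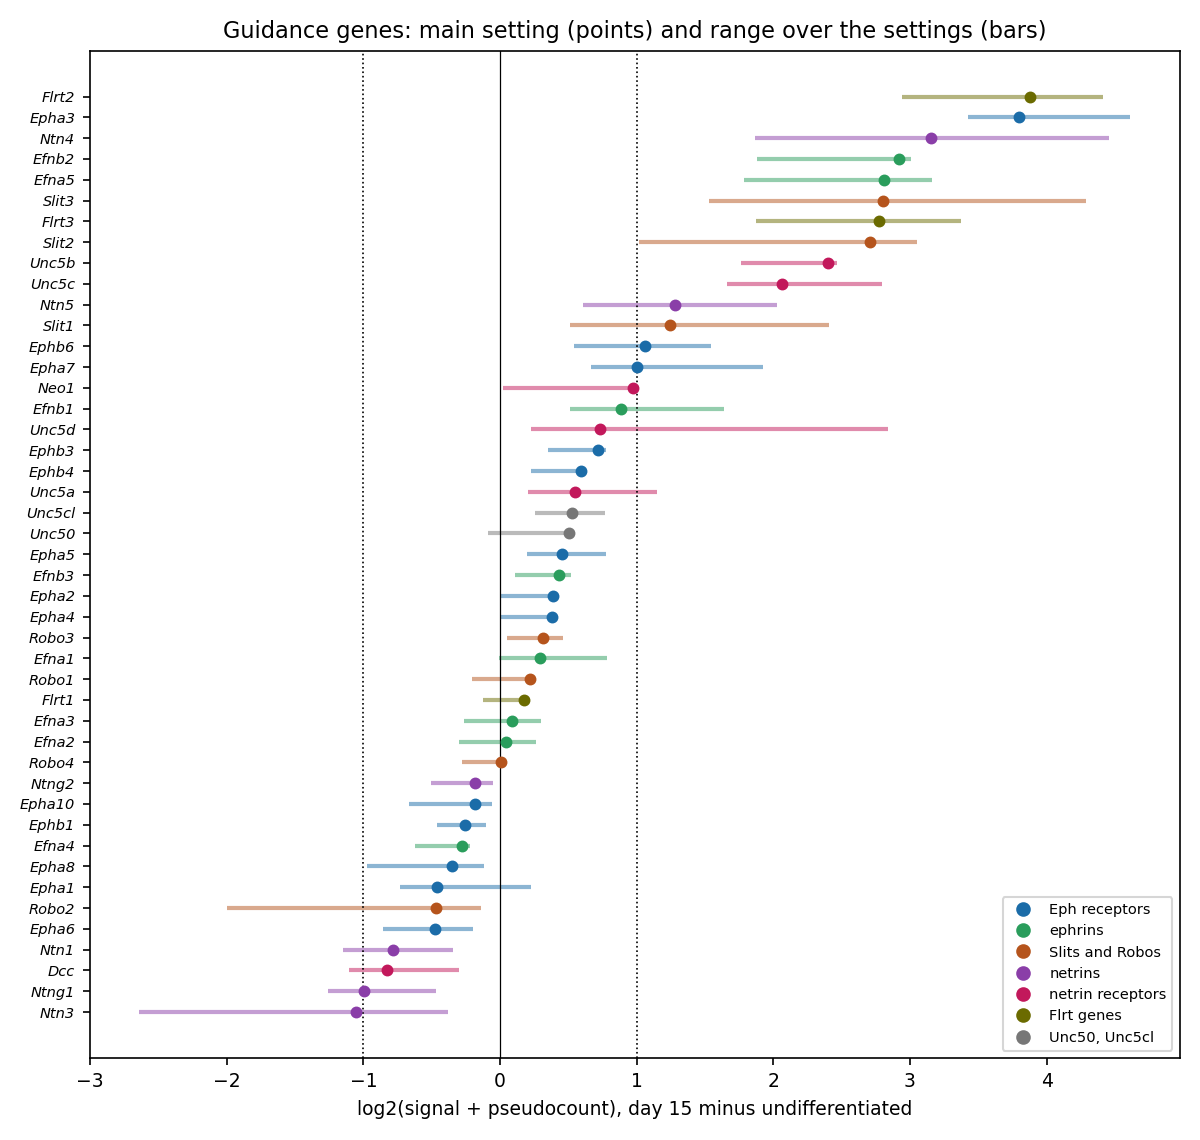
Difference in log2(signal + pseudocount), day 15 minus undifferentiated, of each guidance gene in the main setting (points) and its range over that setting and the 8 alternatives that hold the gene (bars), with dotted lines at 2-fold. The bars of Flrt2, Epha3, Ntn4, Efnb2, Efna5, Slit3, Flrt3, Slit2, Unc5b and Unc5c lie wholly right of the 2-fold line. The filters among the alternatives drop genes and cannot widen a bar.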

How the data were processed

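Total RNA of 1 day 15 and 1 undifferentiated sample was made into biotinylated cRNA and hybridised to 1-colour Affymetrix arrays, per the labels' protocols. The deposited table gives 1 linear intensity for each of 45101 probe sets and array. How the authors' software reduced probes to this value is not given in the sources used here. Both arrays had a 2% trimmed mean of 250.0, which shows that scaling preceded the deposit. Without 64 control probe sets, 34945 of the other 45037 named 1 gene in the platform annotation, with symbols updated through RefSeq (assembly GRCm38.p6). Each gene is represented by its single-gene probe set with the highest mean log2(signal + 16) over both arrays. A gene was called at a difference of at least 2-fold on that scale, which understates the change of dim genes. The files name no genome build, so only promoter coordinates, from RefSeq, are given.

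No filter was applied to the members. All 45 are named, and from each partner list the 6 genes with the largest difference. The members and lists were chosen with earlier results of these data known, and the bound of 35.6 and the promoter letters after the values were seen. The number of arrays limits the precision. Alternatives were 2 other pseudocounts, 2 filters, 2 choices of probe set and 2 scalings. Tools were Python 3.11.15, numpy 2.4.6, pandas 2.3.3, scipy 1.17.1 and matplotlib 3.10.9.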

Additional observations from a re-analysis of the deposited data

How the results depend on the processing

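With 1 array per condition, neither a replicate error nor leaving out a replicate is possible. No paired analysis was possible because each group has a single array. Of the 14 genes called higher, 10 stayed past 2-fold in the main setting and in each of 8 other settings that hold them, and the exceptions were Epha7, Ephb6, Ntn5 and Slit1. All 14 stayed above 0 there. The 2 filters only drop genes and cannot change a difference. Leaving out suffixes a, s and x cannot either for these 14, because none of them is represented by such a probe set. The mean over probe sets cannot change a gene with 1 probe set, such as Slit3. In these cases the outcome was fixed in advance and adds no support. Where a setting below changed a value, the cause was not tested unless fewer genes entered.

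A pseudocount of 1 gave 17 higher and 4 lower guidance genes (18.6% and 14.5% of all genes), with 1 Slit or Robo gene, 2 netrins and 1 netrin receptor lower and 5 netrin receptors higher. A pseudocount of 64 gave 11 higher and 0 lower (8.62% and 3.75% of all genes), with 1 netrin higher and 0 lower. The probe set of a gene was chosen again on each scale, and with a pseudocount of 64 another one then represented 2 genes, Epha3 and Epha7. With the main probe sets kept, a choice made after seeing the data, a pseudocount of 64 gave 10 higher and 0 lower, with Epha7 at 0.64 in place of 1.92 and Epha3 at 2.66 in place of 3.43, and a pseudocount of 1 gave 17 and 4. The filter at the median of all probe sets left 30 genes, 11 of them higher and 0 lower (16.5% and 8.41% of all genes that passed), with 1 netrin higher and 0 lower. The filter at the 75th percentile left 9 genes, of which 2 were higher and 0 lower (13.0% and 9.79% of all genes that passed): 0 Eph receptors, 1 ephrin, 0 netrins and 1 netrin receptor higher, and 0 netrins lower. Asking for 1 array above the bound, chosen after seeing the data, left 35 genes with 14 higher and 0 lower (16.9% and 9.19%). Of these 35, 10 entered through the day 15 array alone and 0 through the undifferentiated array alone, and Ntn3 was left out. The filter itself thus shapes these counts, and they add no support. Quantile normalization gave 12 higher and 3 lower (11.0% and 9.78% of all genes), with 1 Eph receptor higher, 2 netrins lower and 1 netrin receptor lower. Scaling on the hybridization controls gave 10 higher and 4 lower (8.50% and 15.2% of all genes) and a median of 0.12, with 1 Eph receptor and 1 netrin higher, and 3 netrins and 1 netrin receptor lower. The mean over probe sets and leaving out suffixes a, s and x gave 14 and 15 higher (10% and 12% of all genes) and 1 lower each (5.59% and 7.59%). Neither array exceeded the bound of 35.6 for 10 genes, and the day 15 array alone did so for 10.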
